A study of Sus scrofa with 599 samples.

Results

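The regions described here are 20-kb bins of the pig genome that were active in backfat and inactive in omentum. A bin was taken when its A-B index was above 0 in at least 70% of the 54 samples of the upper layer of backfat (ULB, subcutaneous) and in at most 30% of the 65 samples of the greater omentum (GOM, visceral), with all diets pooled. The rule was met by 988 of 113298 autosomal bins (0.872%, 19.76 Mb in all), and the opposite rule, A in GOM and B in ULB, was met by 989. The bins were therefore chosen by measured values. The index in GOM and ULB is given only as a description. Tests were run on what the rule did not use, namely the index in the mesenteric (MAD) and retroperitoneal (RAD) depots, the effect of diet within these depots, and RNA. H3K27ac enhancer regions, which the rule did not use either, are described without a test.

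The animals were adult female Bama miniature pigs with no genetic modification. The normal condition (NC) group ate a normal diet, the weight-gain (WG) group ate a high-fat diet, and the weight-loss (WL) group ate the high-fat diet and was afterwards held on a restricted intake. In situ Hi-C gave an index for 9 NC, 46 WG and 10 WL samples of GOM, 12, 37 and 10 of MAD, 12, 40 and 10 of RAD, and 5, 39 and 10 of ULB. RNA-seq was used for 236 of these 240 samples, with 3337100 to 22939400 estimated counts on protein-coding genes per library. RNA came from pieces of whole adipose tissue, so fewer cells of a type and less RNA per cell could not be told apart. For Hi-C, the study's methods describe centrifuging the fixed tissue and lysing its adipocyte-containing upper layer. The index and the RNA may therefore describe different mixtures of cells. The 6 adipocyte genes checked (ADIPOQ, PLIN1, FABP4, LPL, LEP and CIDEC) summed to between 3807 and 34105 TPM (transcript abundance scaled to gene length and library size) in every library. None of them was at 0 in all libraries of a depot and diet.

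Chromatin in a nucleus is sorted into an A compartment, which is gene-rich and mostly transcribed, and a B compartment, which is gene-poor, compact and mostly silent. Loci in each compartment contact other loci of the same compartment more often, and the A-B index measures in which of them the contacts of a bin lie: positive values mean A and negative values mean B. Acetylation of histone H3 at lysine 27 (H3K27ac) marks active enhancers and promoters. Subcutaneous and visceral fat arise from different embryonic mesoderm, and adult fat depots keep different levels of the transcription factors that pattern the embryo, among them the homeobox genes EN1, IRX3 and MSX2, which start inside these bins.

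Chromosome 10 stood apart in the index and is reported with and without. On the other 17 autosomes the index of every sample followed the median profile of that chromosome with a correlation of at least 0.857. On chromosome 10 the correlation was below 0.5 in 32 samples (7 GOM, 6 MAD, 15 RAD and 4 ULB) and below 0 in 12 of them (5 GOM and 7 RAD, all WG). Of the 988 bins, 53 lay on chromosome 10, and 17 of the 80 genes with RNA data that start in the bins lay there. Leaving those samples out on chromosome 10 gave 126 bins there in place of 53, with 48 in common, and leaving out the chromosome gave 935 bins in all. The cause of the divergent profiles was not tested.

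In NC, ULB replicate 5 had 55.3% of the 988 bins in A, the lowest of the ULB samples, and in WL, GOM replicate 7 had 52.7%, the highest of the GOM samples. Without GOM replicate 7 the rule was met by 1061 bins, which held all 988, and without GOM replicate 9 by 1008.

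The promoters of 4 genes are shown because the RNA results turned on them: EN1, IRX3 and MSX2 were the genes with the highest fold in favour of ULB, and SUCNR1 was the only gene called lower in ULB in each diet. Each sequence is the 250 bases before the RefSeq gene start on Sscrofa11.1, read 5′ to 3′ along the strand of the gene. They lie at chr15:24408378-24408627 (EN1, minus strand), chr6:31044669-31044918 (IRX3, plus), chr16:49771746-49771995 (MSX2, minus) and chr13:92116560-92116809 (SUCNR1, plus). Capitals mark the GC box (GGGCGG or its complement CCGCCC) and the TATA motif (TATAAA or its complement TTTATA), each searched on both strands.
EN1: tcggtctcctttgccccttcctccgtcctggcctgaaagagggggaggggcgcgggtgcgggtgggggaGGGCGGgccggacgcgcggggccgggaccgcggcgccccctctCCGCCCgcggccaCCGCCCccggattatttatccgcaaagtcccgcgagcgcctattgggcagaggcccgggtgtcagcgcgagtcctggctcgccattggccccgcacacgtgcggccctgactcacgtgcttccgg
IRX3: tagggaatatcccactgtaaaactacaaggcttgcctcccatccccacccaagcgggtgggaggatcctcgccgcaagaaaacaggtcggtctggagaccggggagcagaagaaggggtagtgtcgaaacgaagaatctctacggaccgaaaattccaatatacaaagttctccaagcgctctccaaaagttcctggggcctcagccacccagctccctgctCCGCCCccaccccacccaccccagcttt
MSX2: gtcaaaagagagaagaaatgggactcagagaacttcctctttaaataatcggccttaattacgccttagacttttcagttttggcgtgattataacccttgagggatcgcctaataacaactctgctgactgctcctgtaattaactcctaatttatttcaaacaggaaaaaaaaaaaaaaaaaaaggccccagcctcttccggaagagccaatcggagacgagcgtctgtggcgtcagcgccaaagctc
SUCNR1: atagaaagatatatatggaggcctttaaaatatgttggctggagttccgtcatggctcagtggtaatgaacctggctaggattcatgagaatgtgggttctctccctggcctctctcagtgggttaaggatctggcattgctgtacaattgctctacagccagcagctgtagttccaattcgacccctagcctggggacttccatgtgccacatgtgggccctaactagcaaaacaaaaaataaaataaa
The EN1 window held 32 CG dinucleotides and 3 GC boxes, the IRX3 window 11 and 1, the MSX2 window 10 and 0, and the SUCNR1 window 2 and 0. None of these 4 windows held the TATA motif. Over the 80 genes starting in the bins, 41 windows (51.2%) held a GC box and 10 a TATA motif, against 46.1% and 9.65% of the windows of 18722 RefSeq protein-coding genes, and the median number of CG dinucleotides was 11 against 12. A match is only a description of the letters in this window.

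In MAD and RAD, the depots the rule did not use, the bins lay between the omental and the backfat state, and RAD stood nearer to ULB. A GOM sample had on average 15.4% of the bins in A, a MAD sample 50.9%, a RAD sample 62.6% and a ULB sample 84.2%. For the mean index, ULB had 0.61, RAD 0.22, MAD 0.01 and GOM -0.64. Over single samples the share of the bins in A ranged from 0.607 to 52.7% in GOM, from 23.7 to 74.2% in MAD, from 41 to 78.6% in RAD and from 55.3 to 94.6% in ULB, so neighbouring depots overlapped. For comparison, A took 47.9 to 48.4% of all bins in each depot. Without chromosome 10 the mean shares in A were 14.7%, 51.5%, 64.0% and 84.7%.

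**Figure D1:**
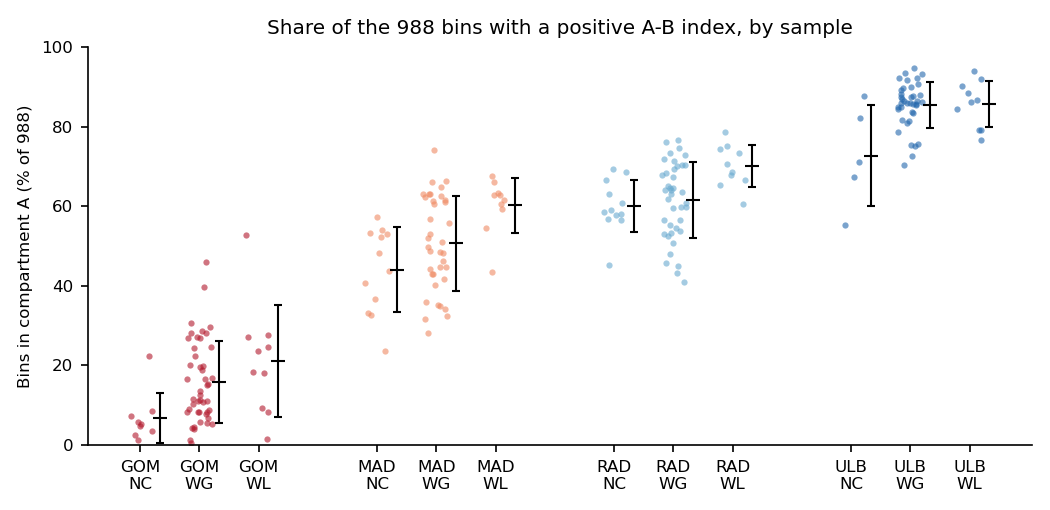
Each point is 1 sample, placed on the y axis at the percentage of the 988 bins with a positive A-B index, for each depot and diet on the x axis; black marks give the mean and the SD. The GOM and ULB values were fixed by the rule, while the MAD means lie at 44, 50.7 and 60.2% and the RAD means at 60.02, 61.5 and 70.1% in NC, WG and WL.

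Bin by bin, RAD exceeded MAD in the mean index over all samples in 805 of the 988 bins, a comparison of depots the rule did not use. The rule itself placed GOM low and ULB high, so that a bin with a middling mean index in MAD or RAD fell between them by that choice. The following counts are a description. By the mean index, MAD lay between GOM and ULB in 904 bins and RAD in 818. RAD was at or above ULB in 153, and 632 (64.0%) followed the order GOM, MAD, RAD, ULB. By the 70% and 30% limits of the rule, 258 bins were A in MAD, 235 were B and 495 were neither. In RAD, 436 were A, 107 were B and 445 were neither. Both depots were A in 226 bins and both were B in 97, and no bin was A in MAD and B in RAD. Without chromosome 10, the order by the mean index was kept by 594 of 935 bins and RAD exceeded MAD in 765.

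**Figure D2:**
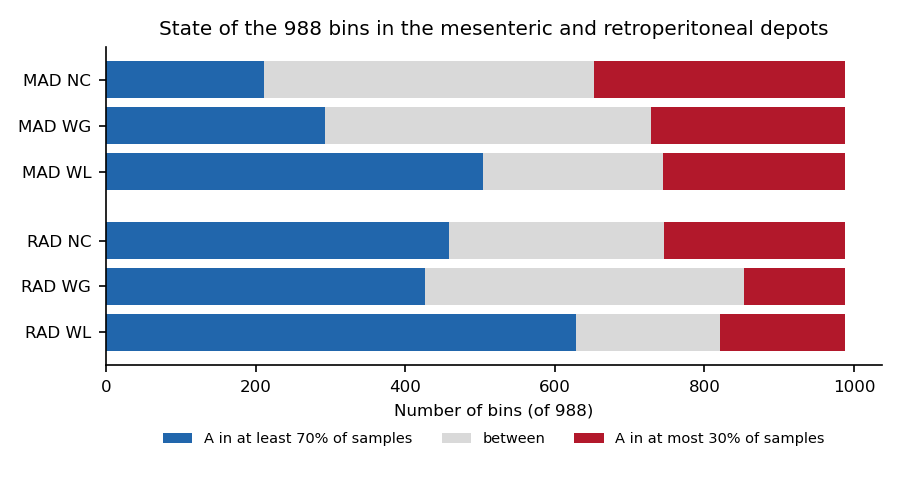
Bars give the number of the 988 bins (x axis) that were A in at least 70%, in between, or A in at most 30% of the samples of each diet in MAD and RAD. Bins in A number 211, 293 and 504 in MAD and 459, 427 and 628 in RAD for NC, WG and WL.

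A direct comparison of the index between MAD and RAD was made within each diet with limma, where a call needed an adjusted p below 0.05 and a difference above 0.75. In NC, 90 of the 988 bins were called higher in RAD against 1.4% of all bins, and 2 lower against 3.74%. In WG, 20 were called higher (0.419% of all bins) and 0 lower (0.826%). In WL, 39 were called higher (0.86%) and 0 lower (0.208%). The index of the bins was thus called higher in RAD far more often than lower in each diet, while over all bins the calls leaned to lower in NC and WG. Irrespective of calls, RAD was higher in 765, 793 and 712 of the 988 bins in NC, WG and WL, where it was higher in 43.1%, 49.0% and 64.3% of all bins. The median difference over the 988 bins was 0.26, 0.21 and 0.20, against -0.07, -0.01 and 0.10 over all bins. None of these calls lay on chromosome 10. At an unadjusted p below 0.05, 41 bins were lower in RAD in WG and 32 in WL. Adjacent bins share contacts and are not independent of each other.

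The bins sat near the border between compartments, which the rule favours because it asks for opposite signs in GOM and ULB. The values of this paragraph are therefore a description. The median size of the mean index, sign aside, was 0.564 in GOM and 0.549 in ULB, against 2.51 and 2.44 over all bins. The median difference between ULB and GOM was 1.22. In GOM the limit of 30% was met with at most 19 samples in A and 79 bins stood at that number, and in ULB the limit of 70% was met with at least 38 samples and 68 bins stood there. Just outside, 63 bins missed the rule by 1 ULB sample and 86 by 1 GOM sample. All ULB samples were in A in 78 bins, no GOM sample was in A in 79, and 1 bin met both.

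Within a single diet the rule was met by 539 of the 988 bins in NC, 840 in WG and 648 in WL, and by 315 in each of the 3 diets. The mean share in A in NC, WG and WL was 6.76%, 15.9% and 21.1% for GOM and 72.7%, 85.4% and 85.7% for ULB. The share in A in ULB is lower in NC, where the 5 samples held 55.3, 67.4, 71.1, 82.2 and 87.8% of the bins in A. Because the rule pooled diets and WG held most samples, these shares are not a test of diet.

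In MAD and RAD the effect of diet could be tested. From NC to WG, 21 of the 988 bins rose in MAD (3.8% of all bins) and 2 fell (0.678%). From WG to WL, 18 rose in MAD (0.838%) and 0 fell (0.169%), with 54 lower at an unadjusted p below 0.05 in limma. In RAD, 13 rose from NC to WG (3.69%) and 42 fell (0.631%), and 40 rose from WG to WL (3.62%) and 1 fell (0.205%). In either direction, the 4 comparisons called 23, 18, 55 and 41 bins (4.47%, 1.01%, 4.32% and 3.83% of all bins). As shares of the 988 bins these rises were 2.13%, 1.82%, 1.32% and 4.05% and the falls 0.202%, 0%, 4.25% and 0.101%. The falls in RAD from NC to WG thus stood above the share over all bins, and the rises from NC to WG stood below it in both depots. Both steps share the WG samples, so a fall followed by a rise is not 2 separate observations. The index of all bins also shifted with diet, with a median of 0.05 in both MAD steps, 0.14 in RAD from NC to WG and 0.16 in RAD from WG to WL. Quantile normalization removes such shifts. After it the rises and falls were 8 and 3, 3 and 1, 6 and 61, and 6 and 7, in the same order. Over all 113298 bins they were 1301 and 795, 524 and 305, 1249 and 1439, and 1340 and 770. The falls in RAD from NC to WG thus stayed above the share over all bins. The rises in RAD from WG to WL had been near that share and were then below it.

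The 988 bins formed 412 runs of adjacent bins. Single bins made up 229 of the runs, and the 48 runs of at least 5 bins held 415 bins (42%). Of the runs, 97 held a gene start and 315 none. The bins covered every autosome, from 0.365% of the bins of chromosome 13 to 1.588% of those of chromosome 5.

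The longest run, chr6:99500001-100020000 with 26 bins, contained no gene start, and its mean share in A was 87.2% in ULB, 82.7% and 73.2% in MAD and RAD, and 16.3% in GOM. The run at chr5:64900001-65400000 with 25 bins held the start of NTF3, which encodes the nerve growth factor neurotrophin-3, and was in A in 12.3%, 81.6%, 85.4% and 96.5% of GOM, MAD, RAD and ULB samples. In these 2 runs both visceral depots other than the omentum stood close to backfat. The run at chr7:54120001-54480000 with 18 bins held 12 gene starts, among them that of ACAN (aggrecan, a cartilage proteoglycan), and was in A in 4.10%, 28.6%, 46.6% and 81.6% of samples in the same order. The run at chr8:97240001-97500000 with 13 bins had no gene start and stayed mostly in B in MAD (11.5%) and RAD (19.2%), with 2.84% in GOM and 81.3% in ULB. The runs thus differed in where MAD and RAD stood between the omental and the backfat state.

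**Figure D3:**
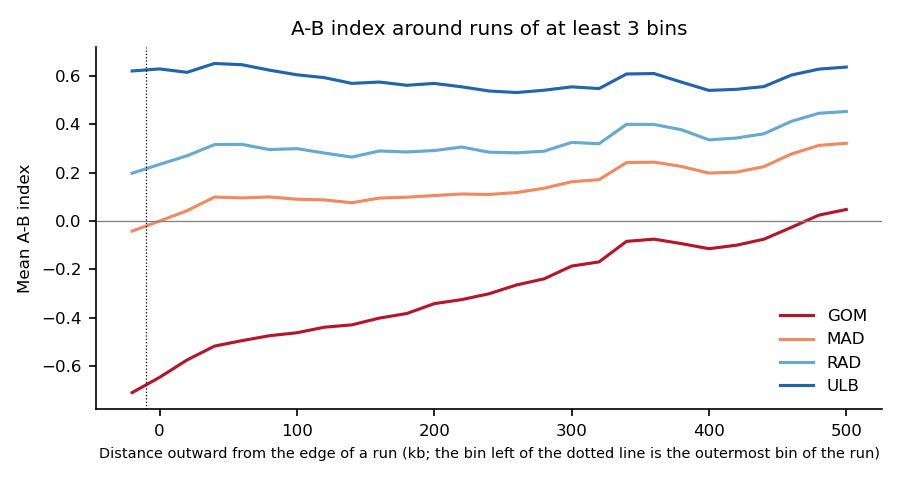
Lines give the mean A-B index (y axis) of each depot over the 210 edges of the 105 runs of at least 3 bins, by distance outward from the edge in kb (x axis). The point left of the dotted line is the middle bin of the run, although the axis label names it the outermost. The outermost bin lies at 0 kb. The GOM line rises from -0.71 in the middle bin to 0.05 at 500 kb, and the ULB line starts at 0.62 and ends at 0.64. The rule chose the runs by the GOM and ULB values.

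Around the 105 runs of at least 3 bins, the mean ULB index stayed positive outside the run, and the mean GOM index rose away from it. The rule chose runs with GOM low and ULB high, so a GOM rise outside them follows in part from that choice. The values of this paragraph are a description. The mean was -0.71 in GOM and 0.62 in ULB in the middle bin of the run, and -0.65 and 0.63 in its outermost bin. It was -0.46 and 0.60 at 100 kb, and 0.05 and 0.64 at 500 kb. From the middle bin to 500 kb, MAD went from -0.04 to 0.32 and RAD from 0.20 to 0.45. In the 100 kb on both sides of the longest run, ULB was in A in 99.6% and 97% and GOM in 44.9% and 40.6%. In ULB, the flanking 100 kb was A on both sides in 117 of the 412 runs and B on both sides in 12. The GOM index was not used for these counts.

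In base composition and gene density the bins lay between A and B chromatin. Their median GC content was 42.3%, against 40.6% over all bins, 43.9% in bins A in every depot, 37.9% in bins B in every depot and 39.4% in the opposite class. They held 6.48 RefSeq gene starts per Mb, against 8.26 over all bins and 14.4 and 3.18 in bins constantly A and B, and 6.24 in all bins whose mean index lay within 0.75 of 0. On chromosome 10 the density was 23.6 per Mb, and without it 5.51. The edges of topologically associating domains (TADs) fell in 8.56% ± 0.834 of the bins in GOM (SD, n = 65), 8.25% ± 0.806 in MAD (n = 59), 8.76% ± 0.784 in RAD (n = 62) and 9.78% ± 1.09 in ULB (n = 54). Over all bins these shares were 8.61%, 8.55%, 8.82% and 9.39%, each within 1 SD of the values of the 988 bins.

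In H3K27ac, a separate assay, GOM stood apart from the other depots. Some of its samples, NC ULB replicates 3 and 10 among them, had no index here. The enhancer tables pool the replicates of each group, and a bin was counted when at least 200 bp of a region overlapped it. In the NC tables GOM regions covered 27.1% of the 988 bins (40.4% of all bins), MAD regions 36% (35.4%), RAD regions 45.9% (37.6%) and ULB regions 48.5% (35.3%). In the WL tables the shares in the same order were 29.8%, 49.7%, 48.6% and 59.5%, against 37.2%, 39.6%, 34.9% and 38.2%. In the WG tables they were 26.4 to 33% in GOM, 37.6 to 41.8% in MAD, 35.5 and 44.8% in RAD, and 34.8 and 46% in ULB. Divided by the share over all bins, the bins reached 0.672 to 0.873 in the 5 GOM tables, 1.02 to 1.25 in the 5 MAD tables, 1.22 to 1.39 in the 4 RAD tables and 1.29 to 1.56 in the 4 ULB tables. The GOM tables did not overlap those of the other depots, whereas MAD overlapped RAD and RAD overlapped ULB. MAD had a higher share than RAD in WL, and in the WG set with tables of all 4 depots the shares were 41.8% in MAD, 35.5% in RAD and 34.8% in ULB. Without chromosome 10 the NC MAD ratio was 0.945 and the other MAD ratios 1.05 to 1.23, while GOM stayed at 0.596 to 0.803, RAD at 1.17 to 1.36 and ULB at 1.23 to 1.55. With pooled replicates no test between depots was possible.

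**Figure D4:**
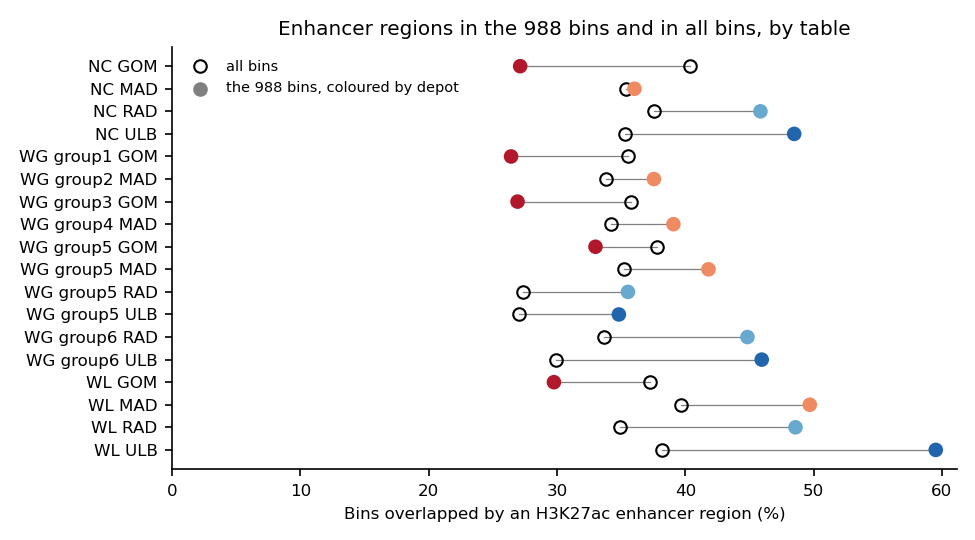
Points give the percentage of bins overlapped by an H3K27ac enhancer region (x axis) in each of the 18 tables (y axis), for the 988 bins and for all bins. The 988 bins lie left of all bins in the 5 GOM tables and right of them in the MAD, RAD and ULB tables, by the least in NC MAD (36% against 35.4%).

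A region was present in all 4 ULB tables and in no GOM table in 48 of the 988 bins (4.86%), against 0.464% of all bins, and the converse held in 5 (0.506%), against 2.65%. No table had a region in 208 bins (21.1%), against 40.3%. Super-enhancers, which are dense clusters of enhancers, covered 9.51% of the bins in WL ULB against 9.16% of all bins, and 4.76% against 6.96% in NC ULB. In GOM they covered 1.01 to 1.92% of the bins against 5.19 to 8.92%. In MAD they covered 1.01 to 4.35% against 3.68 to 8.56%, in RAD 1.62 to 4.45% against 3.88 to 8.83%, and in the WG tables of ULB 1.11 and 1.42% against 3.48 and 3.81%. Super-enhancers were thus rarer in the bins than over the genome in every table of every depot except WL ULB.

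RNA of the genes starting in the bins was compared between GOM and ULB with edgeR's quasi-likelihood test, where a call needed an adjusted p below 0.05 and a fold above 1.5. RefSeq places 128 gene starts in the bins, and 80 protein-coding genes could be matched by symbol to the expression tables. Of the 80, 53 passed the filter on low levels in each diet, 25 in none, and 16 had a median below 0.5 TPM in every depot and diet. In NC, 9 of 54 tested genes were called higher in ULB (13.3% of all genes tested) and 5 lower (12.1%). In WG, 11 of 53 were higher (7.59%) and 2 lower (10.3%). In WL, 12 of 54 were higher (6.16%) and 2 lower (9.81%). Since a gene can pass the filter through the depot in which it is high, the fit was repeated with no filter, and it called 10, 15 and 13 of 79 genes higher (10.9%, 8.46% and 4.74% of all genes) and 5, 6 and 2 lower (8.07%, 9.56% and 7.93%). With chromosome 10 included, the share of genes higher in ULB was thus close to that over all genes in NC and above it in WG and WL. The median log2 fold change was 0.09, 0.15 and 0.16 for the tested genes and -0.02, 0.00 and -0.01 for all genes. Over the 3 diets, 17 genes were higher in ULB at least once (5 of them in each diet), 6 were lower at least once, and together these were 23 of the 80. For these pooled counts no share over all genes is given. Without the genes of the bins on chromosome 10 the counts were 9 higher and 4 lower of 40, 11 and 1 of 39, and 12 and 2 of 40. The shares higher were then 22.5%, 28.2% and 30%. The NC share so taken stood above the 13.3% of all genes tested, which still held chromosome 10. In NC the samples of a replicate number deviated together. With the number as a block, 4 of 56 genes were higher (EN1, IRX3, PCDH17 and GGH) and 1 lower (CASP1), against 638 and 584 of all 14218 tested.

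EN1, a homeobox transcription factor that patterns the dorsoventral axis of the limb and the midbrain-hindbrain, gave the highest fold. Its bin, chr15:24400001-24420000 in a run of 7 bins, was in A in 24.6% of GOM, 86.4% of MAD, 100% of RAD and 100% of ULB samples, and carried an enhancer region in 4 of 4 ULB, 4 of 4 RAD, 0 of 5 MAD and 1 of 5 GOM tables. In NC, EN1 reached 7.31, 8.36, 12.4, 13.7 and 14.5 TPM in the 5 ULB samples, while the lowest, median and highest GOM values were 0, 0.0516 and 0.174 TPM. In WG the values were 3.67, 12.8 and 23.9 TPM in ULB and 0, 0.258 and 0.856 in GOM, and in WL they were 10.2, 16.2 and 25.8 in ULB and 0.161, 0.256 and 0.888 in GOM. Every ULB sample lay above every GOM sample of its diet. The log2 fold change was 6.85 ± 0.50 (SE; adjusted p = 7.1e-08) in NC, 5.55 ± 0.16 (adjusted p = 4.7e-48) in WG and 5.34 ± 0.28 (adjusted p = 4.9e-12) in WL. GOM libraries held at most 3.70 counts of EN1 in NC and 4 of 9 held none, so the size of the NC fold depends on the prior count of the fit.

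IRX3, a homeobox transcription factor studied in adipocyte browning and obesity, starts in chr6:31040001-31060000. This bin was in A in 1.54% of GOM, 30.5% of MAD, 35.5% of RAD and 83.3% of ULB samples. In NC, IRX3 had 14.1, 14.8, 15.4, 15.5 and 15.6 TPM in ULB, and 0, 0.584 and 1.83 TPM as the lowest, median and highest in GOM. In WG the medians were 12.0 TPM in ULB and 1.28 in GOM, with ranges that overlapped (8.15 to 34.8 and 0.117 to 11.9), and in WL they were 15 and 2.54 with no overlap (11.3 to 23 and 0.836 to 7.87). The level in ULB was similar across diets while the GOM median was lower in NC than in WL. The log2 fold change was 4.33 ± 0.49 (adjusted p = 8.7e-06), 3.43 ± 0.20 (adjusted p = 3.1e-27) and 2.51 ± 0.31 (adjusted p = 1.7e-06) in NC, WG and WL, and its change with diet missed the threshold (NC to WG -0.93 ± 0.51, adjusted p = 0.31; WG to WL -0.92 ± 0.40, adjusted p = 0.39).

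MSX2, a homeobox factor of limb, skin and skull development, starts in chr16:49760001-49780000, a bin in A in no GOM sample, 3.39% of MAD, 21% of RAD and 83.3% of ULB samples. By diet, 0% of NC, 10% of WG and 90% of WL samples of RAD were in A. MSX2 had 2.50, 3.21, 3.51, 3.74 and 5.31 TPM in the NC ULB samples, and 0 to 1.58 TPM in NC GOM with a median of 0.431. The ULB medians were 3.46 TPM in WG and 4.05 in WL, against 0.427 and 0.409 in GOM. Groups did not overlap in NC and WL, and in WG 33 of 38 ULB samples lay above every GOM sample. The log2 fold change was 2.82 ± 0.65 (adjusted p = 0.004), 3.33 ± 0.23 (adjusted p = 4.6e-23) and 3.14 ± 0.48 (adjusted p = 2.7e-05). The NC call was lost with the replicate block (3.4, adjusted p = 0.11).

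PCDH17, a protocadherin of cell adhesion, starts in chr11:30500001-30520000, in A in 3.08% of GOM, 11.9% of MAD, 40.3% of RAD and 77.8% of ULB samples, with an enhancer region in 3 of 4 ULB and 0 of 5 GOM tables. Its NC values in ULB were 14.4, 15.9, 16.2, 19.9 and 34.1 TPM, above the NC GOM range of 3.29 to 9.41 TPM. The log2 fold change was 1.68 ± 0.25 (adjusted p = 1e-04), 1.65 ± 0.12 (adjusted p = 1.2e-20) and 1.83 ± 0.18 (adjusted p = 8.9e-08), with no overlap in NC and WL and with 29 of 38 ULB samples above every GOM sample in WG.

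CXCL14, a chemokine that brown and white fat secrete, starts in chr2:137800001-137820000, in A in 10.8%, 61.0%, 77.4% and 94.4% of GOM, MAD, RAD and ULB samples. In NC it had 19.3, 29.8, 30.3, 30.7 and 34.6 TPM in ULB and 5.22 to 24.7 TPM in GOM, so the lowest ULB sample lay inside the GOM range. The log2 fold change was 1.11 ± 0.31 (adjusted p = 0.012), 0.96 ± 0.16 (adjusted p = 4.8e-07) and 1.42 ± 0.25 (adjusted p = 0.00016), and the NC call was lost with the block (0.96, adjusted p = 0.16).

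SUCNR1, the cell-surface receptor for succinate, went the other way. Its bin, chr13:92100001-92120000, was in A in 6.15% of GOM, 57.6% of MAD, 59.7% of RAD and 77.8% of ULB samples, yet the transcript was lower in ULB in each diet. NC ULB samples had 0.889, 2.73, 2.94, 3.16 and 3.4 TPM, and NC GOM samples 3.28 to 13.5 with a median of 7.73. In WL the ranges did not overlap, with 3.02 to 7.96 TPM in ULB and 9.25 to 34.3 in GOM. The log2 fold change was -1.62 ± 0.35 (adjusted p = 0.0026), -1.24 ± 0.14 (adjusted p = 4.7e-13) and -2.0 ± 0.22 (adjusted p = 2.7e-07), and the NC call was lost with the block (-1.71, adjusted p = 0.086). LMOD1, a smooth muscle actin-filament protein on chromosome 10, was lower in ULB in NC (-1.58 ± 0.27, adjusted p = 0.00042) and WG (-1.61 ± 0.13, adjusted p = 6.8e-19) and had -0.50 ± 0.24 (adjusted p = 0.13) in WL.

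**Figure D5:**
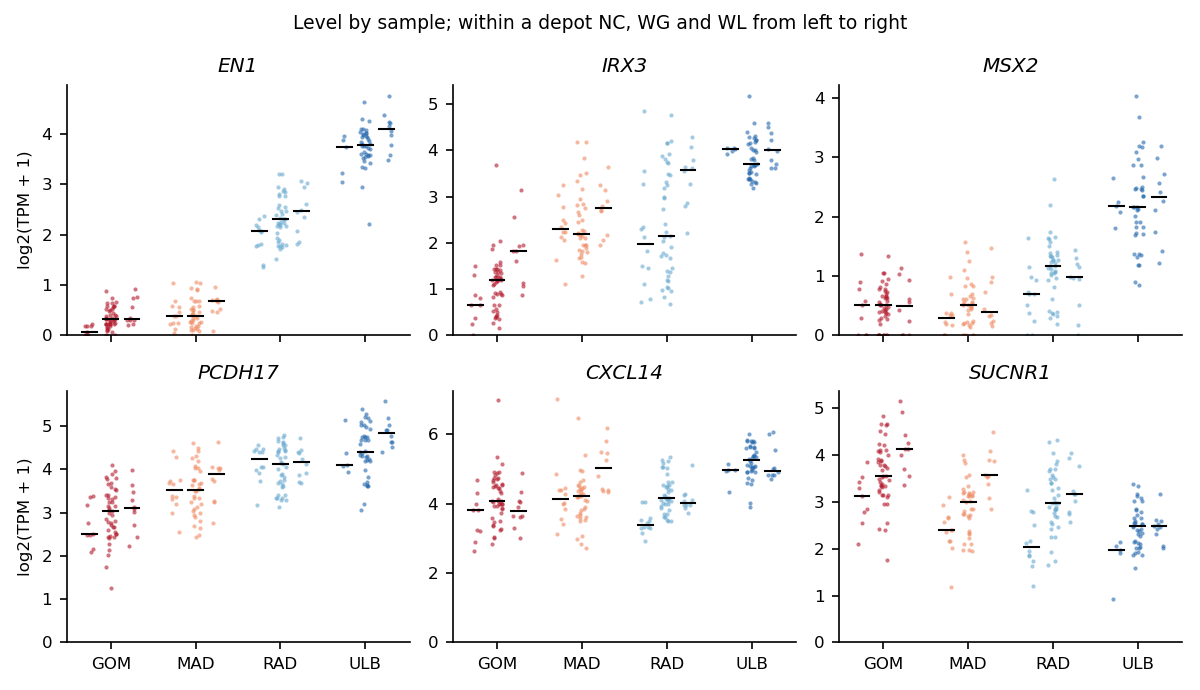
Each point is 1 RNA-seq library, at log2(TPM + 1) on the y axis, by depot on the x axis with NC, WG and WL from left to right; black lines are medians. EN1 ULB libraries lie above all GOM libraries of their diet and EN1 RAD libraries above all MAD libraries, and SUCNR1 has its highest medians in GOM.

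The other genes called higher in ULB in WG or WL were of mixed function. NTF3, in the run of 25 bins on chromosome 5, had medians of 1.65 and 2.46 TPM in ULB and 0.615 and 0.689 in GOM in WG and WL (log2 fold change 1.39 and 1.93), and 0.35 ± 0.72 (adjusted p = 0.74) in NC. ARHGAP24, which inactivates the GTPase Rac and starts in a bin with enhancer regions in 4 of 4 ULB and 0 of 5 GOM tables, rose by 0.64 in NC and 1.01 in WL. STXBP6 (0.72 and 0.85) and the metalloprotease gene ADAM28 (0.68 and 0.98) were called in WG and WL. COL25A1, a membrane collagen (2.26), NDNF, a neurotrophic factor (1.36), and GEM, a small GTPase (0.78), were called in WL, VRK1 (0.63), a kinase, and HAO2 (0.61), a peroxisomal oxidase, in WG, and GGH (0.80), a folate hydrolase, and TSPAN12 (1.6), a tetraspanin, in NC. RARRES1, a retinoid-responsive gene, was called in NC (1.23) and WG (0.73). In NC the genes called lower besides SUCNR1 and LMOD1 were RXRG (-1.94), CASP1 (-1.46) and NAV2 (-1.13), and CD207, the Langerhans cell lectin, was lower in WL (-0.68). TSPAN12 had 20.2 to 199.8 TPM in NC ULB, and among the NC libraries with a low share of TPM on protein-coding genes its log2 fold change was -0.13 (adjusted p = 0.89).

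The genes with the highest mean TPM were CSRP1, TSPAN12, WDR26, ETNK1 and CNIH4. TSPAN12 averaged 112 TPM over all samples and was called higher in ULB than GOM in NC. CSRP1, WDR26 and CNIH4, all on chromosome 10, and ETNK1, an ethanolamine kinase, averaged 117, 88.3, 70.4 and 82.0 TPM, and none of these 4 was called between GOM and ULB. WDR26, a subunit of a ubiquitin ligase, had medians of 87.4, 78.2 and 52.9 TPM in GOM and 97.1, 110 and 73.3 in ULB. By edgeR its log2 difference in WG (0.34, adjusted p = 0.0052) and WL (0.49, adjusted p = 0.016) passed the p but not the size a call needed. ETNK1 had 57.6, 82.9 and 95.8 TPM in GOM and 54.9, 74.6 and 109 in ULB, and its bin was in A in 29.2% of GOM and 77.8% of ULB samples. ACAN stayed at medians of 0.164 TPM or less in every group.

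Between MAD and RAD few genes differed. In NC, 1 of 51 tested genes was called higher in RAD (0.509% of all genes) and 3 lower (1.9%). In WG, 5 of 54 were higher (1.75%) and 2 lower (3.65%), and in WL 1 of 53 higher (1.55%) and 4 lower (5.76%). EN1 was higher in RAD in each diet. Its lowest, median and highest TPM were 0.0406, 0.314 and 1.07 in MAD and 1.57, 3.19 and 4.18 in RAD in NC, 0, 0.316 and 1.08 against 1.87, 3.95 and 8.25 in WG, and 0.0569, 0.601 and 0.956 against 2.50, 4.55 and 7.36 in WL. MAD and RAD did not overlap in any diet, and the log2 fold change was 3.07 ± 0.33 (adjusted p = 6.6e-07), 3.43 ± 0.18 (adjusted p = 2.3e-27) and 3.17 ± 0.33 (adjusted p = 2.3e-06). The EN1 medians thus rose from GOM and MAD through RAD to ULB, and within each diet the GOM and MAD ranges overlapped.

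In WG, MSX2 (1.46 ± 0.25, adjusted p = 3.9e-06), NTF3 (0.95 ± 0.21, adjusted p = 0.00054), TSPAN12 (0.77 ± 0.16, adjusted p = 0.00025) and RARRES1 (0.61, adjusted p = 0.047) were also higher in RAD. IRX3 had medians of 3.92, 3.58 and 5.73 TPM in MAD and 2.94, 3.44 and 11 in RAD and was not called (log2 fold change 0.37, 0.33 and 0.80; adjusted p = 0.86, 0.43 and 0.064). CCL5, a chemokine of T cells, was lower in RAD in each diet (-0.85 ± 0.23, adjusted p = 0.044; -0.63 ± 0.14, adjusted p = 0.00044; -1.75 ± 0.31, adjusted p = 0.0017), although its bin was in A in 79.7% of MAD and 100% of RAD samples. LMOD1 was lower in RAD in NC (-1.96 ± 0.35, adjusted p = 0.00082) and WG (-0.95 ± 0.12, adjusted p = 6.5e-10), CSRP1, a LIM-domain protein of smooth muscle, in NC (-1.36 ± 0.38, adjusted p = 0.05), and CXCL14 (-1.07), NAV2 (-1.22) and CD207 (-0.92) in WL. In WL the replicate numbers paired the samples. With the block 6 of 53 genes were higher in RAD (EN1, IRX3, PREX2, TSPAN12, NTF3 and COL25A1) and 6 lower, against 513 and 1017 of all 13923 tested.

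Within depots, diet changed between 1 and 11 of the tested genes of the bins in each comparison. In either direction from NC to WG, GOM had 5 of 50 genes called (26.7% of all genes tested), MAD 9 of 52 (10.7%), RAD 11 of 54 (16.7%) and ULB 1 of 53 (2.38%). From WG to WL, GOM had 2 of 50 (5.26%), MAD 8 of 52 (17.4%), RAD 4 of 55 (6.37%) and ULB 9 of 54 (8.12%). The counts are small, and both steps share the WG samples. ADAM28, a metalloprotease of lymphocytes, rose from NC to WG in MAD (1.58), RAD (1.51) and ULB (1.70) and fell from WG to WL by 1.17 in GOM, 1.44 in RAD and 0.84 in ULB. Its rise in ULB was the single call there and was lost without NC ULB replicate 2, 5, 9 or 12 (edgeR adjusted p = 0.058, 0.12, 0.14 and 0.11) and with a term for the share of TPM on protein-coding genes (adjusted p = 0.22). RARRES1 (1.15 and 1.18), the ADP receptor gene P2RY12 (1.07 and 0.95), CASP1 (0.81 and 1.05) and the connexin gene GJA5 (0.60 and 0.63) rose from NC to WG in both MAD and RAD. RXRG, a retinoid X receptor, fell in GOM (-0.74), MAD (-0.93) and RAD (-1.06). From WG to WL, EPHX1, an epoxide hydrolase on chromosome 10, fell in MAD (-0.99), RAD (-0.75) and ULB (-1.11).

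The difference between GOM and ULB itself changed with diet in few genes. Between NC and WG, 0 of 54 genes passed edgeR's test of the interaction (1.22% of all genes), with 6 at an unadjusted p below 0.05. Between WG and WL, 2 of 54 passed (1.07%): LMOD1 (1.12 ± 0.29, adjusted p = 0.027) and ARHGAP24 (0.68 ± 0.19, adjusted p = 0.049). LMOD1 medians were 33.7 TPM in GOM and 9.81 in ULB in WG, and 22.8 and 19.8 in WL. ARHGAP24 medians were 14.7 and 18.7 TPM in WG, and 11.5 and 23.1 in WL.

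Most of a wider set of patterning factors started outside the bins. Of 60 transcription factor genes of the body plan and limb (HOX, IRX, PAX, TBX and related families), 53 could be placed and 3 started in the bins: EN1, IRX3 and MSX2. Over all genes, 80 of the 13064 placed started in the bins, a lower share. The bins of 27 of the 53 were A in at least 70% of samples in both depots and those of 17 in at most 30% in both. Between GOM and ULB, 20 of 28 tested genes of the list were higher in ULB and 3 lower in NC, 20 and 3 of 27 in WG, and 21 and 3 of 27 in WL, so most of the tested genes of the list differed in RNA, while 3 of the 53 placed genes started in the bins. Of 8 visceral lineage factors (WT1, TCF21, GATA4, GATA5, GATA6, BNC1, TBX20 and NR2F1), none started in the bins, and 5 of the 6 tested were lower in ULB in each diet. Both lists were chosen with results of these samples known and are not independent evidence of their direction.

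Markers of adipocytes and of other cell types also differed between the depots. Of the 6 adipocyte genes, 6 were called higher in ULB than GOM in NC, 1 in WG and 4 in WL, with median log2 differences of 0.87, 0.23 and 0.81. Their sums in NC ran from 5380 to 10233 TPM in GOM and from 12458 to 18239 in ULB, with no overlap, and in WL from 6603 to 15964 in GOM and from 16902 to 31582 in ULB, again with no overlap. In WG the groups overlapped, with medians of 15099.7 and 15669 TPM. Mesothelial markers (3 of 7 matched: KRT18, WT1 and CALB2) summed to medians of 72.6, 45.2 and 69.4 TPM in GOM in NC, WG and WL (range 16.7 to 186) and 11.7, 5.43 and 3.70 TPM in ULB (range 0.213 to 131). Keratinocyte markers (4 of 7) had medians of 14.2, 12.6 and 16.3 TPM in GOM and 6.02, 3.46 and 2.45 in ULB, with KRT1 at 0 in every NC GOM library. Nerve sheath markers (3 of 4) went the other way, with 2.67, 1.69 and 1.52 TPM in GOM and 10.1, 5.86 and 8.01 in ULB. Immune markers (6 of 6) had medians of 238, 241 and 206 TPM in GOM and 151, 189 and 227 in ULB, and 254 in MAD against 181 in RAD in WL, where CCL5 and CD207 were lower in RAD. Endothelial markers (2 of 3) ran from 216 to 904 TPM over all libraries, kidney and adrenal markers (5 of 5) from 1.79 to 203, skeletal muscle markers (4 of 8) from 0 to 122, and pancreas markers (4 of 5) from 0.144 to 8.30. The part of these cells in the differences between depots was not tested.

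Libraries also differed in the share of TPM that fell on protein-coding genes. It was below 88% in 7 of 9 GOM and 2 of 5 ULB libraries of NC, 3 of 45 and 1 of 38 of WG, and 6 of 10 and 3 of 10 of WL. Among NC libraries above 88%, 7 of 55 genes were called higher in ULB and 2 lower, against 1149 and 922 of all 14756 tested. Among those below it, 5 of 58 were higher and 1 lower, against 534 and 510 of all 15010. EN1, IRX3 and PCDH17 kept their calls in both sets, and MSX2 (2.78, adjusted p = 0.13) and CXCL14 (0.97, adjusted p = 0.25) were not called among the libraries below 88%.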

How the data were processed

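Per the study's methods, the authors mapped in situ Hi-C reads to Sscrofa11.1 with Juicer, balanced and quantile-normalized the contacts, and derived for 20-kb autosomal bins a deposited A-B index, a score whose sign gives the compartment; its zero depends on an orientation set per chromosome and sample. The deposited TADs are intervals called by the authors with deDoc. The deposited expected counts and TPM came from rRNA-depleted stranded RNA quantified by the authors with kallisto 0.43.0, which splits reads shared by near-identical genes. H3K27ac reads were aligned with BWA 0.7.15 and SAMtools 1.3.1, and SICER and ROSE gave deposited regions with their signal, the replicates of a group being pooled; these signal values were not compared between tables.

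Index columns of 240 samples and count columns of 236 were matched to the labels; 9 columns in each table matched no sample and were not used. Here, frequencies of a positive index gave the bins. RefSeq genes were placed by symbol (13064 of 21280 genes in a bin). Expected counts were rounded, a gene was kept if 80% or more of the libraries of either group had TPM above 0.5, and edgeR 4.0.16 (TMM, quasi-likelihood, Benjamini-Hochberg adjustment) compared the groups of each contrast; DESeq2 1.42.0 was an alternative. Index differences were tested with limma 3.58.1 (trended). P-values measure the spread between samples of a group. Both scripts were tested on simulated data.

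The bins, the lists and the tests were chosen with earlier results of these data known. Genes were named by fixed rules: those called in the same direction in every diet between GOM and ULB, patterning factors in the bins, the highest mean TPM, genes called between MAD and RAD in several diets, and genes whose GOM to ULB difference changed with diet; NTF3 and ACAN were added for the longest runs, and the others after their values were seen. Deviations of same-numbered samples correlated above 0.1 in every pair in RNA of GOM and ULB in NC (4 pairs, lowest 0.104) and of MAD and RAD in WL (10 pairs, lowest 0.241), so these were taken as paired; the pairing comes from the numbers in the labels. In the other comparisons not every pair did, and the samples were not taken as paired. In WG RNA, 37 of 38 GOM and ULB pairs (median 0.62) and 30 of 31 MAD and RAD pairs (median 0.66) nonetheless did. No main fit used the replicate number, so any such pairing in WG was left out of its p-values. Sequences were read from the RefSeq genome of the same build. The tools were R 4.3.3, Python 3.11.15, numpy 2.4.6, pandas 2.3.3, scipy 1.17.1 and matplotlib 3.10.9.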

Additional observations from a re-analysis of the deposited data

Results flagged for a closer look

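Single samples stood far from the rest of their group by Dixon's test in 9 of the 96 groups examined, where chance gives about 1 in 20. In the share of the 988 bins in A, NC GOM replicate 8 had 22.3% (median of its group 5.16%, next value 8.50%), and WL GOM replicate 7 had 52.7% (median 21%, next value 27.6%). WL GOM replicate 7 also had 155 TPM of TSPAN12, with a group median of 73.1 and a next value of 91.7. ARHGAP24 had 5.44 TPM in WL GOM replicate 9 (median 11.5), MSX2 had 1.77 TPM in WL MAD replicate 9 (median 0.315), and CXCL14 had 33.5 TPM in WL RAD replicate 4 (median 15.3). In NC ULB, PCDH17 had 34.1 TPM in replicate 12 (median 16.2), and SUCNR1 had 0.889 TPM in replicate 5 (median 2.94), the sample with the lowest share of the bins in A. SUCNR1 had 7.96 TPM in WL ULB replicate 6 (median 4.57).

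Between WG and WL, edgeR's test of the interaction found a different ULB to GOM difference for LMOD1 (1.12 on the log2 scale, adjusted p = 0.027) and ARHGAP24 (0.68, adjusted p = 0.049). The shallowest library of WL GOM is the one with the low ARHGAP24 value.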

How the results depend on the processing

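Of the counts recomputed under alternatives, 93 stayed within 1.5 times the value reported and 38 did not. Of the values of single genes, 479 kept direction and side of the threshold, 32 lost a call, 8 gained one and 1 reversed: TSPAN12 between GOM and ULB in NC was -0.13 in the libraries with a low protein-coding share. The fits on libraries of a low or high share, without chromosome 10 and without GOM replicates 7 and 9 of WL were chosen after seeing the data. The cause of each move was not tested, except that these subsets and the replicate block hold fewer samples.

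For genes higher in ULB than GOM in NC, the block gave 4 and low-share libraries 5. For genes higher in RAD than MAD, NC gave 2 with DESeq2, 2 with the block and 0 with low-share libraries, WG gave 8 with no filter, and WL gave 2 with DESeq2, 6 with the block, 2 with high-share and 0 with low-share libraries. For genes called from NC to WG, GOM gave 15 with no filter and 8 with a term for the share, MAD 17 with no filter, and ULB 3 and 0. From WG to WL, GOM gave 4 with the share term and RAD 2 without chromosome 10. The interaction between WG and WL gave 4 with no filter and 1 without chromosome 10. Without each NC ULB replicate in turn, 9 to 11 genes were higher in ULB, 0 to 1 changed from NC to WG in ULB and 0 to 1 passed the interaction (1 without replicate 5 and 1 without replicate 9), and 936 to 966 bins met the rule.

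For bins higher in RAD than MAD, a difference above 0.5 gave 163 in NC and 110 in WG, and an adjusted p below 0.01 gave 54 in NC and 9 in WL. For bins called with diet, a difference above 0.5 gave 110 and 69 in MAD and 159 and 110 in RAD (NC to WG, WG to WL), an adjusted p below 0.01 gave 8 in MAD from WG to WL, and quantile normalization gave 11 and 4 in MAD and 13 in RAD from WG to WL. Limits of 80% and 20% left 363 bins, quantile normalization 962 (881 shared) and the mean of the frequencies of NC, WG and WL 935 (746 shared).

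The block changed no other count by over 1.5 times. Same-numbered samples correlated best with each other in 5 of 12 pairs in NC MAD and RAD RNA. In the index, no comparison was paired, and the block gave 89, 24 and 34 bins higher in RAD in NC, WG and WL. The share term could not be fitted for MAD against RAD in WG, nor in RAD between NC and WG or WG and WL. The number of NC ULB samples limits the NC comparisons, and the H3K27ac tables give no error.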
